A study of Mus musculus with 10 samples.

Results

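The genes described here are 34 genes of glycolysis and pyruvate metabolism: glucose transporters, the enzymes that turn glucose into pyruvate, lactate dehydrogenases, lactate transporters, and the pyruvate dehydrogenase complex with its kinases. They were chosen by symbol, all 34 were found among the 19025 genes of the files, and the rule uses no measured value. The RNA-seq data are 10 mouse libraries in 5 groups of 2, all from C57BL/6 mice or cells. The groups were T helper 2 (Th2) cultures with trichostatin A (TSA), Th2 cultures without TSA, CD4 T cells, B cells and embryonic stem (ES) cells. TSA inhibits histone deacetylases, enzymes that remove acetyl groups from histones. For both Th2 groups, splenic CD4 T cells were cultured for 5 days with interleukin 2 at 15 ng/ml and interleukin 4 at 10 ng/ml. TSA was added at 10 nM on day 2 and left for 3 days. The CD4 T cells and the B220-positive B cells were taken with magnetic beads from spleens of mice aged 6 to 8 weeks, at a stated purity over 98%. The ES cells were of the B6N-22 line and grew with leukemia inhibitory factor on feeder fibroblasts treated with mitomycin C. The labels number the libraries of every group by experiment, 1 and 2, and nowhere say that libraries of a group came from separate animals or cultures. The p-values therefore measure the spread between these libraries, which may be technical.

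Glycolysis splits glucose into pyruvate in the cytosol and yields ATP and NADH. Pyruvate is then either reduced to lactate, which regenerates NAD+ and leaves the cell through monocarboxylate transporters, or enters mitochondria and is turned into acetyl-CoA by the pyruvate dehydrogenase complex. Most steps have several isoenzymes, encoded by separate genes that differ in tissue, kinetics and regulation. Resting lymphocytes have a low glycolytic rate, activated T cells raise it, and mouse ES cells are also strongly glycolytic.

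Values are FPKM, fragments scaled by transcript length and library size, and the number of reads behind each value is unknown. In the ES, B and CD4 T groups the libraries of a pair differed by a log2 SD of only 0.0419 to 0.0466 across genes, which is within read sampling, so each pair was averaged and counted as 1 sample. The Th2 pairs differed by 0.323 with TSA and 0.308 without TSA, and count as 2 samples each. This distinction rests on the spread alone, since the labels number the libraries of all groups by experiment. The 4 Th2 files and the 6 other files are of different kinds: where a symbol has several values above 0, these are identical for all 1321 such symbols in the Th2 files and for 46 of 1426 in the other files. The kind of file cannot be told apart from the contrast of Th2 cells with the other cells. Summed FPKM of 5 T cell markers was 1003 to 1007 in TSA-treated Th2 libraries, 1055 to 1062 in Th2 libraries, 1621 to 1628 in CD4 T libraries, 23.0 to 23.7 in B libraries and 4.09 to 4.68 in ES libraries.

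Taken as 1 block, the 34 genes held a share of summed FPKM of 0.934% and 0.928% in the TSA-treated Th2 libraries, and of 1.38% and 1.76% in the Th2 libraries. The share was 0.315% in both CD4 T libraries, 0.231% in both B libraries, and 1.43% and 1.44% in the ES libraries. Cultured Th2 cells and ES cells thus stood well above the 2 splenic populations. By group mean, 2 of the genes were highest in TSA-treated Th2, 10 in Th2, 5 in CD4 T, 2 in B and 15 in ES cells. The lowest mean was in TSA-treated Th2 for 6 genes, in Th2 for 1, in CD4 T for 7, in B for 16 and in ES cells for 4. No shares over all genes stand beside these counts, so they describe the 34 genes only. No gene was at 0 in any library, and 29 reached 1 FPKM in all 10.

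**Figure D1:**
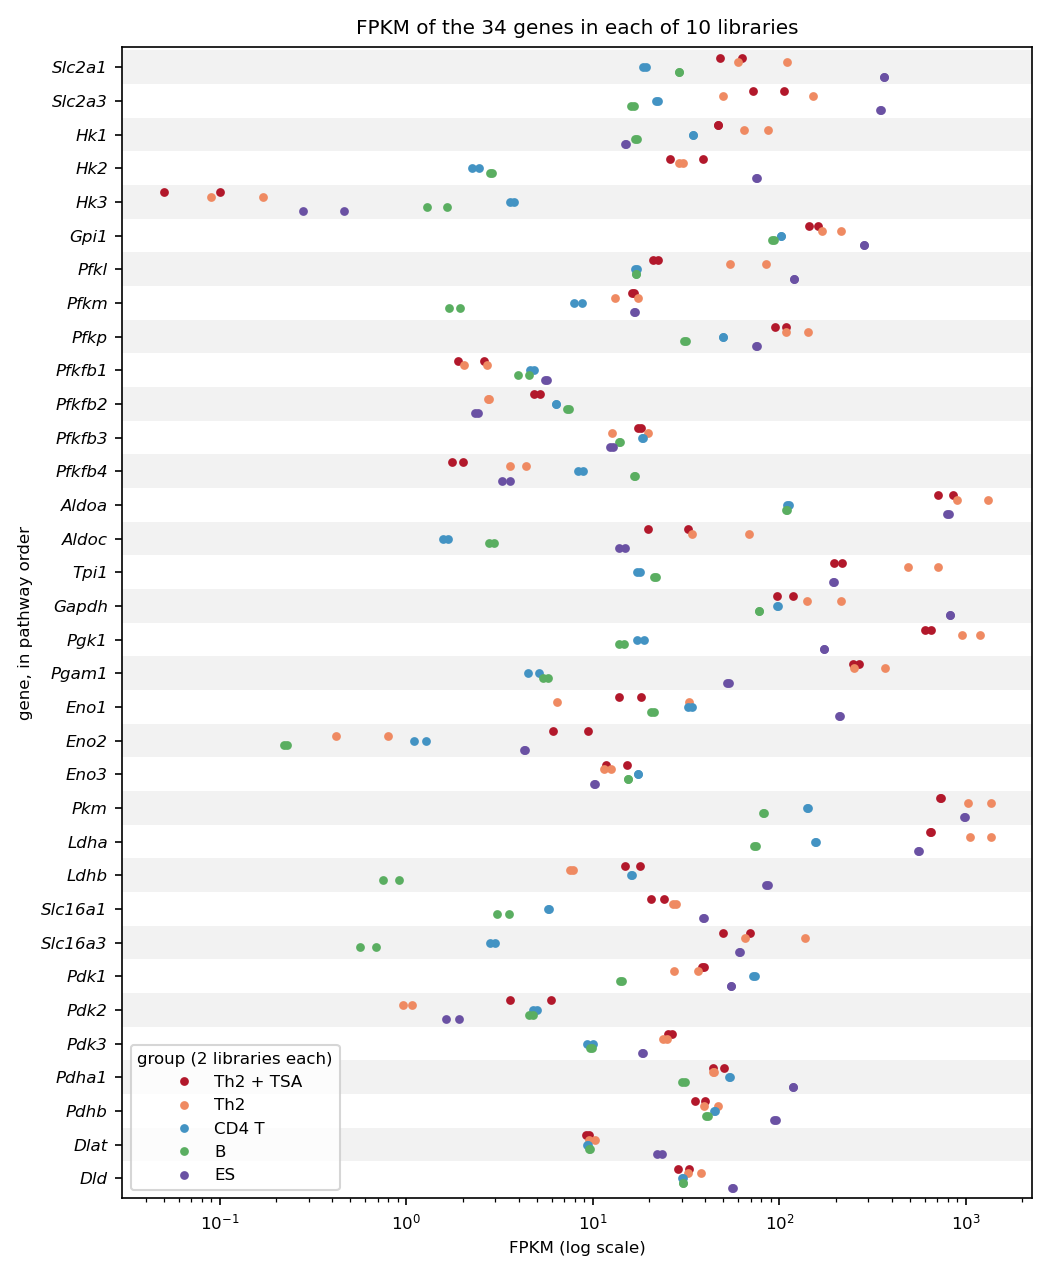
FPKM of each of the 34 genes (rows, in pathway order, log axis) in the 10 libraries, with 1 point per library and 1 colour per group. The Th2 points of Pgk1 and Pgam1 lie far to the right of the CD4 T and B points. For the pyruvate dehydrogenase subunits at the bottom (Pdha1, Pdhb, Dlat, Dld) the Th2 and CD4 T points lie close together. The ES points of these subunits lie higher, and the B points of Pdha1 lie lower.

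Proximal promoters are shown for 4 genes that carry the contrasts described below, picked after the values were seen: Ldha and Pgk1, which were high in Th2 cells, and Ldhb and Pfkl, which moved in opposite directions with TSA. Each is the RefSeq window (GRCm38.p6) from 250 bases before to 50 after a start, on the sense strand, 5′ to 3′. Capitals mark ACGTG and GCGTG on either strand (CACGT and CACGC on the other), the core letters bound by hypoxia-inducible factors. The E-box CACGTG holds that core on both strands. Ldha lies at chr7:46845554-46845853 (+), Pgk1 at chrX:106186850-106187149 (+), Ldhb at chr6:142507908-142508207 (-) and Pfkl at chr10:78009758-78010057 (-). For Ldha the window is not at the start of the transcript whose accession the files give.
Ldha: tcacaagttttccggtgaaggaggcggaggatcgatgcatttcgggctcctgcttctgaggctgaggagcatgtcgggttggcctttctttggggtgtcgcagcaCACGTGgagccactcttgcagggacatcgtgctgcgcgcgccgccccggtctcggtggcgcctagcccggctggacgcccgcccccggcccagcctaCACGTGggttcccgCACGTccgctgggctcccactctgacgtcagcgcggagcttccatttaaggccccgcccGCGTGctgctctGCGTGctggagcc
Pgk1: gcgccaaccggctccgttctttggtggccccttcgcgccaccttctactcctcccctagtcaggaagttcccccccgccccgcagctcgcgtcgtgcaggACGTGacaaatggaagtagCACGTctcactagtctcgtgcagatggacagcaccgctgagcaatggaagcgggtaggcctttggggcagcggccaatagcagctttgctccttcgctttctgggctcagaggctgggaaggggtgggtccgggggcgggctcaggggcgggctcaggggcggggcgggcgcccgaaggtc
Ldhb: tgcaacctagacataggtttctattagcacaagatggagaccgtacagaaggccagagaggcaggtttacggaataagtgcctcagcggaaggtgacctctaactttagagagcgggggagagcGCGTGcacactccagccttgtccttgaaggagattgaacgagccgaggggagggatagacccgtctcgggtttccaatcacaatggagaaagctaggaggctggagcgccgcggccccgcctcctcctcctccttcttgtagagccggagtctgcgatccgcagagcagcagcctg
Pfkl: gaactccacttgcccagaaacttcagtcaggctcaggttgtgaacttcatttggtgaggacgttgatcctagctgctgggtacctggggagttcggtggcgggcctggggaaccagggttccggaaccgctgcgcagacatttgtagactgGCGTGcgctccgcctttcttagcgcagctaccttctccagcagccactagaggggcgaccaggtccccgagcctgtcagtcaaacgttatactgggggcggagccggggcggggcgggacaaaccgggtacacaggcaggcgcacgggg
The Ldha window holds 7 core matches, of which 2 E-boxes give 2 each, the Pgk1 window holds 2, and the Ldhb and Pfkl windows hold 1 each. These 4 windows do not stand for the other genes. Among genes called higher in Th2 than in CD4 T cells, Slc16a1 has 5 matches, while Tpi1, Pkm, Gpi1 and Hk1 have 0. The Tpi1 and Pkm windows, like that of Ldha, are not at the start of the transcript measured. Among genes not called there, Pdha1 and Pfkfb3 have 4 each, while Dlat and Dld have 0. RefSeq windows matched 33 of the 34 genes (not Slc2a3), and for 25 of the 33 a window lay at the start of the transcript measured. Of these 33, counted at each gene's first listed start, 24 (72.7%) hold a core match and 5 (15.2%) an E-box. Among the windows of all 27025 genes the shares were 43.8% and 7.2%. The windows of the 33 genes are also richer in G and C, with a median of 62.0% against 52.7% over all genes, and a match is a description of letters, not a bound site.

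Th2 cells were compared with splenic CD4 T cells, the kind of cell from which the cultures were started. Of the 34 genes, 16 were higher in Th2 cells (47.1% of the genes, against a background of 16.9% of the 12367 genes tested) and 6 were lower (17.6%, against a background of 38.1%), by limma with a Benjamini-Hochberg adjusted p below 0.05. The median log2 fold change was 0.85 for the 34 genes and -0.28 for all genes tested. Over all genes 2086 were higher and 4709 lower, and with quantile normalization 3505 and 3423, where 2 of the 34 genes were lower. The higher genes covered each step from glucose entry to lactate export except those of Gapdh and enolase, and the lower ones were minor isoenzymes and regulators. Of these 22 calls, 14 held under all 13 other settings tried, and the 8 that did not are named with their genes. Without the first Th2 library 2 of the genes were called lower, and without the second 3. Proliferation markers moved with this contrast, with a summed FPKM of 587 to 710 in Th2 libraries against 67 to 68 in CD4 T libraries, and their part in the differences was not tested.

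Glucose enters through the transporters encoded by Slc2a1 (GLUT1) and Slc2a3 (GLUT3). Slc2a1 had 48.0 and 62.6 FPKM in TSA-treated Th2 libraries, 60.0 and 110.4 in Th2 libraries, 18.6 and 19.3 in CD4 T libraries, 28.9 and 29.1 in B libraries, and 361 in both ES libraries. All Th2 libraries lay above the splenic cells and far below ES cells, and the groups with and without TSA overlapped. Slc2a1 was 4.51-fold higher in Th2 than in CD4 T cells (log2 2.05 ± 0.47 SE, limma adjusted p = 0.0389), a call lost without the second Th2 library (adjusted p = 0.0649) or without a filter on low values (adjusted p = 0.0588). Slc2a3 had 72.3 and 106.4 FPKM in TSA-treated Th2 libraries, 49.97 and 152 in Th2 libraries, 22.4 and 21.9 in CD4 T libraries, 16.0 and 16.6 in B libraries, and 349 and 348 in ES libraries. Its Th2 libraries differed 3-fold from each other, and its log2 difference of 1.93 ± 0.82 from CD4 T cells did not pass the test (limma adjusted p = 0.137).

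Hexokinases trap glucose as glucose 6-phosphate. Hk1, the widely expressed form, had 46.8 and 46.6 FPKM in TSA-treated Th2 libraries, 64.6 and 87.2 in Th2 libraries, 34.6 in both CD4 T libraries, 16.9 and 17.2 in B libraries, and 15.1 and 14.9 in ES libraries. Hk2, the inducible form of muscle and of many growing cells, had 38.8 and 26.0 FPKM in TSA-treated Th2 libraries, 30.3 and 29.0 in Th2 libraries, 2.25 and 2.46 in CD4 T libraries, 2.88 and 2.79 in B libraries, and 75.6 and 74.7 in ES libraries. Hk2 therefore separated the cultured cells from the splenic ones without overlap, and Hk1 set Th2 cells apart from ES cells. Both rose in Th2 over CD4 T cells, Hk2 by 12.6-fold (log2 3.19 ± 0.29, limma adjusted p = 0.0064) and Hk1 by 2.20-fold (log2 1.10 ± 0.22, limma adjusted p = 0.0292).

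Hk3, a form found mainly in myeloid cells, went the other way. It had 0.10 and 0.05 FPKM in TSA-treated Th2 libraries, 0.17 and 0.09 in Th2 libraries, 3.78 and 3.58 in CD4 T libraries, 1.29 and 1.65 in B libraries, and 0.46 and 0.28 in ES libraries. The fall in Th2 cells passed the test (log2 -2.05 ± 0.06, limma adjusted p = 0.0012). The Th2 values lie near 0, where log2(FPKM + 1) narrows the spread, so the small SE says little. Across the settings tried the log2 difference ran from -4.06 to -0.76. The 8 myeloid markers moved with Hk3, with a summed FPKM of 4.35 to 5.23 in TSA-treated Th2, 2.85 to 3.61 in Th2, 439 to 443 in CD4 T, 192 to 194 in B and 66.8 to 68.1 in ES libraries. Of them C1qa, C1qb and C1qc were at 0 in both Th2 libraries, all 8 reached 1 FPKM in the CD4 T as in the B group, and their part in the Hk3 difference was not tested. Here as elsewhere in bulk samples, fewer cells of a type and less RNA per cell cannot be told apart.

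Gpi1, glucose phosphate isomerase, makes the fructose 6-phosphate on which phosphofructokinase acts. It had 143 and 162 FPKM in TSA-treated Th2, 168 and 214 in Th2, 102.2 and 101.8 in CD4 T, 93.3 and 91.1 in B, and 282 and 284 in ES libraries. Its 1.88-fold rise in Th2 over CD4 T cells (limma adjusted p = 0.0387) was lost without either Th2 library, with adjusted p = 0.0563 without the first and 0.0907 without the second, and without a filter on low values (adjusted p = 0.0555).

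Phosphofructokinase catalyses the committed step, and its subunits are named for liver (Pfkl), muscle (Pfkm) and platelet (Pfkp). Pfkl had 22.3 and 20.9 FPKM in TSA-treated Th2, 54.5 and 84.6 in Th2, 17.3 and 16.9 in CD4 T, 16.9 and 17.0 in B, and 119.6 and 119.5 in ES libraries. Its Th2 level thus lay between that of CD4 T and ES cells, and with TSA it lay close to that of CD4 T cells. Pfkp had 107.9 and 94.7 FPKM in TSA-treated Th2, 108.0 and 142 in Th2, 49.7 and 49.5 in CD4 T, 31.6 and 30.7 in B, and 74.6 and 75.8 in ES libraries. Pfkm was the lowest of these subunits, at 16.3 and 16.6 FPKM in TSA-treated Th2, 13.1 and 17.4 in Th2, 8.72 and 7.87 in CD4 T, 1.70 and 1.93 in B, and 16.6 and 16.9 in ES libraries. In Th2 over CD4 T cells Pfkl rose 4.07-fold (log2 1.93 ± 0.31, limma adjusted p = 0.0193) and Pfkp 2.52-fold (log2 1.302 ± 0.22, limma adjusted p = 0.0209, but 0.0567 without the second Th2 library). Pfkm had a log2 difference of 0.79 ± 0.21 and missed the threshold (limma adjusted p = 0.0517).

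The PFKFB enzymes make and break fructose 2,6-bisphosphate, the main activator of phosphofructokinase, and none of the 4 exceeded 19.6 FPKM. Pfkfb3, the form with the highest kinase activity, had 17.4 and 18.2 FPKM in TSA-treated Th2, 12.6 and 19.6 in Th2, 18.3 and 18.6 in CD4 T, 13.8 and 13.9 in B, and 12.8 and 12.3 in ES libraries. The wide range of untreated Th2 overlapped that of every other group, while those other groups did not overlap each other. Pfkfb4 had 2.01 and 1.76 FPKM in TSA-treated Th2, 3.57 and 4.35 in Th2, 8.33 and 8.83 in CD4 T, 16.7 and 16.9 in B, and 3.24 and 3.61 in ES libraries, a run that placed B cells at the top. Pfkfb2, known from heart and kidney, had 5.17 and 4.85 FPKM in TSA-treated Th2, 2.77 and 2.73 in Th2, 6.32 and 6.37 in CD4 T, 7.27 and 7.48 in B, and 2.42 and 2.33 in ES libraries. Pfkfb1, the liver form, lay between 1.90 and 5.66 FPKM throughout. Pfkfb2 and Pfkfb4 fell in Th2 relative to CD4 T cells (log2 -0.97 ± 0.10 with limma adjusted p = 0.0081, and log2 -0.95 ± 0.16 with limma adjusted p = 0.0202). B cell markers moved with this contrast, with a summed FPKM of 4.33 to 6.29 in Th2 against 222 to 226 in CD4 T libraries and Pax5 at 0 in Th2, and their part was not tested. Both calls were lost without either Th2 library (adjusted p between 0.0586 and 0.0771) and with quantile normalization (adjusted p = 0.101 and 0.140), and that of Pfkfb4 also with median-ratio scaling (adjusted p = 0.0566). Pfkfb3 had log2 -0.22 ± 0.31, a sign that turned under both of these scalings, and Pfkfb1 had log2 -0.77 ± 0.22 (limma adjusted p = 0.0633).

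The steps after phosphofructokinase begin with aldolase. Aldolase A (Aldoa) splits fructose 1,6-bisphosphate and had 709 and 857 FPKM in TSA-treated Th2, 898 and 1305 in Th2, 109.9 and 113 in CD4 T, 108 and 109 in B, and 795 and 808 in ES libraries. Aldolase C (Aldoc), best known from brain, had 19.8 and 32.5 FPKM in TSA-treated Th2, 34.1 and 68.9 in Th2, 1.66 and 1.57 in CD4 T, 2.96 and 2.78 in B, and 13.8 and 14.8 in ES libraries. Both aldolases were high in cultured cells, and the untreated Th2 libraries of Aldoc lay far apart. Triose phosphate isomerase (Tpi1) had 217 and 196 FPKM in TSA-treated Th2, 488 and 709 in Th2, 17.8 and 17.2 in CD4 T, 21.2 and 21.7 in B, and 194 and 195 in ES libraries. In Th2 over CD4 T cells Aldoa rose 9.90-fold (log2 3.27 ± 0.31, limma adjusted p = 0.0070), Aldoc 31.9-fold (log2 4.24 ± 0.60, limma adjusted p = 0.0144) and Tpi1 34.2-fold (log2 4.99 ± 0.28, limma adjusted p = 0.0031).

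Phosphoglycerate kinase (Pgk1) and phosphoglycerate mutase (Pgam1) showed the largest log2 differences of the 34 genes between Th2 and CD4 T cells. Pgk1, which makes the first ATP that glycolysis returns, had 647 and 602 FPKM in TSA-treated Th2, 949 and 1189 in Th2, 18.9 and 17.2 in CD4 T, 13.7 and 14.7 in B, and 173 and 174 in ES libraries. Pgam1 had 249 and 268 FPKM in TSA-treated Th2, 251 and 370.1 in Th2, 4.46 and 5.12 in CD4 T, 5.40 and 5.75 in B, and 52.4 and 53.5 in ES libraries. For both genes every Th2 library, with or without TSA, exceeded every ES library, and every ES library exceeded the splenic cells. Over CD4 T cells Pgk1 rose 59.3-fold (log2 5.80 ± 0.18, limma adjusted p = 0.0013) and Pgam1 64.9-fold (log2 5.72 ± 0.28, limma adjusted p = 0.0027).

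Gapdh and Eno1 did not follow their neighbours in the pathway. Gapdh, glyceraldehyde 3-phosphate dehydrogenase, had 96.7 and 119 FPKM in TSA-treated Th2, 140.1 and 213 in Th2, 98.1 and 97.2 in CD4 T, 77.4 and 77.2 in B, and 822 and 821 in ES libraries. Enolase 1 (Eno1) had 13.9 and 18.0 FPKM in TSA-treated Th2, 6.38 and 32.9 in Th2, 32.5 and 34.1 in CD4 T, 21.4 and 20.4 in B, and 210.1 and 208 in ES libraries. The first Th2 library was thus the lowest of all 10 for Eno1, while the second lay near the CD4 T libraries. Neither gene passed the test between Th2 and CD4 T cells, with log2 0.82 ± 0.33 for Gapdh (limma adjusted p = 0.128) and log2 -1.12 ± 1.09 for Eno1 (limma adjusted p = 0.442). These values are uncertain because near copies can share reads: at 90% identity over 50% of the transcript, GENCODE M21 lists 150 copies of Gapdh (141 of them pseudogenes), 7 of Ldha, 6 of Eno1, 5 each of Aldoa and Pkm, 2 of Pgk1 and 1 each of Ldhb and Pdhb. How the authors counted such reads is not given in the sources used here, and the part of the copies in any difference was not tested.

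The other enolases are neuronal (Eno2) and muscle (Eno3) forms. Eno2 had 6.09 and 9.44 FPKM in TSA-treated Th2, 0.42 and 0.80 in Th2, 1.10 and 1.28 in CD4 T, 0.22 and 0.23 in B, and 4.32 and 4.28 in ES libraries, so that only TSA-treated Th2 and ES cells exceeded 2 FPKM. Eno3 lay between 10.2 and 17.5 FPKM in all 10 libraries. Neither passed the test between Th2 and CD4 T cells, with log2 -0.45 ± 0.32 for Eno2 (limma adjusted p = 0.311) and log2 -0.51 ± 0.21 for Eno3 (limma adjusted p = 0.123).

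Pyruvate kinase M (Pkm) makes pyruvate, and its splice forms M1 and M2 are not separated in the files. Pkm had 730.4 and 729 FPKM in TSA-treated Th2, 1024 and 1354 in Th2, 141 and 143 in CD4 T, 81.2 and 83.1 in B, and 972 and 985 in ES libraries. Lactate dehydrogenase A (Ldha), the muscle-type subunit, had 639 and 649 FPKM in TSA-treated Th2, 1052 and 1356 in Th2, 154 and 157 in CD4 T, 74.4 and 73.0 in B, and 558 and 556 in ES libraries. Both were among the most abundant of the 34 genes in cultured cells, and every Th2 library exceeded every CD4 T library several times over. The heart-type subunit Ldhb had 14.9 and 17.8 FPKM in TSA-treated Th2, 7.54 and 7.84 in Th2, 16.1 and 16.0 in CD4 T, 0.75 and 0.91 in B, and 84.2 and 86.6 in ES libraries. In Th2 over CD4 T cells Pkm rose 8.39-fold (log2 3.05 ± 0.22, limma adjusted p = 0.0046) and Ldha 7.74-fold (log2 2.93 ± 0.20, limma adjusted p = 0.0042). Ldhb fell (log2 -0.97 ± 0.15, limma adjusted p = 0.0171), a call lost without the first Th2 library (adjusted p = 0.0889), without the second (adjusted p = 0.0855) and with quantile normalization (adjusted p = 0.0571).

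Lactate leaves through the monocarboxylate transporters MCT1 (Slc16a1) and MCT4 (Slc16a3), the form typical of cells that export much lactate. Slc16a3 had 50.1 and 69.8 FPKM in TSA-treated Th2, 65.1 and 138 in Th2, 2.98 and 2.81 in CD4 T, 0.56 and 0.69 in B, and 61.1 and 60.4 in ES libraries. Slc16a1 had 24.0 and 20.6 FPKM in TSA-treated Th2, 28.04 and 26.9 in Th2, 5.82 and 5.73 in CD4 T, 3.05 and 3.55 in B, and 39.6 and 38.7 in ES libraries. Both were low in the splenic cells, and none of their Th2 libraries overlapped those of CD4 T cells. They rose in Th2 over CD4 T cells by 35.0-fold for Slc16a3 (log2 4.62 ± 0.57, limma adjusted p = 0.0112) and 4.75-fold for Slc16a1 (log2 2.07 ± 0.13, limma adjusted p = 0.0038). Slc16a3 has 3 transcripts, for which the Th2 files repeat the same value. The first CD4 T library has 2.87, 2.98 and 2.9 FPKM for them, and the highest was used. If the Th2 value stands for the whole gene, the fold of Slc16a3 is overstated.

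At the entry of pyruvate into mitochondrial metabolism, values of the Th2 and CD4 T groups lay close together. The pyruvate dehydrogenase subunits are encoded by Pdha1 and Pdhb (E1), Dlat (E2) and Dld (E3). Pdha1 lay between 43.8 and 54.4 FPKM in the TSA-treated Th2, Th2 and CD4 T libraries, Pdhb between 35.2 and 46.9, Dlat between 9.15 and 10.2 and Dld between 28.6 and 37.9. In B libraries Pdha1 was lower, at 31.0 and 29.9 FPKM, and the other subunits lay within these ranges. None of these subunits passed the test between Th2 and CD4 T cells, with log2 fold changes from -0.27 to 0.21 (limma adjusted p from 0.134 to 0.754). The sign turned for Pdha1 with median-ratio scaling, and for Pdhb with both scalings and without the second Th2 library.

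The kinases that shut the complex by phosphorylation changed in makeup. Pdk1 had 38.2 and 39.2 FPKM in TSA-treated Th2, 27.3 and 36.5 in Th2, 73.8 and 71.8 in CD4 T, 14.02 and 14.2 in B, and 55.1 and 55.2 in ES libraries. Pdk2 had 3.61 and 5.96 FPKM in TSA-treated Th2, 0.96 and 1.07 in Th2, 4.75 and 4.98 in CD4 T, 4.76 and 4.52 in B, and 1.62 and 1.92 in ES libraries. Pdk3 had 26.7 and 25.2 FPKM in TSA-treated Th2, 23.6 and 24.8 in Th2, 10.0 and 9.31 in CD4 T, 9.85 and 9.62 in B, and 18.2 and 18.6 in ES libraries. Relative to CD4 T cells, Th2 cells were thus lower in Pdk1 and Pdk2 and higher in Pdk3, with no overlap. Pdk3 rose 2.51-fold (log2 1.24 ± 0.09, limma adjusted p = 0.0047), Pdk1 fell (log2 -1.18 ± 0.21, limma adjusted p = 0.0230) and Pdk2 fell (log2 -1.54 ± 0.30, limma adjusted p = 0.0282). The Pdk1 call was lost with median-ratio scaling (adjusted p = 0.0565). The Pdk2 call was lost without the first Th2 library (adjusted p = 0.114), without the second (adjusted p = 0.108) and with quantile normalization (adjusted p = 0.0657).

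TSA-treated Th2 cells were then set against Th2 cells, a contrast of RNA levels with and without the inhibitor. This contrast shares the Th2 libraries with the preceding one, so the values of each stand side by side and opposite signs between them are no result. Of the 34 genes, 3 were higher with TSA (8.82%, against a background of 10.1% of 12440 genes) and 2 were lower (5.88%, against a background of 4.72%), shares near those of all genes. The median log2 fold change was -0.19 for the 34 genes and 0.04 for all genes tested. Over all genes 1255 were higher and 587 lower, and with quantile normalization 1228 and 1137, where 6 of the 34 genes were lower. The higher genes were Eno2, Ldhb and Pfkfb2, the lower ones Pfkl and Tpi1.

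With TSA, Eno2 was 12.7-fold higher (7.77 ± 2.37 FPKM in TSA-treated Th2 and 0.61 ± 0.27 FPKM in Th2, SD, n = 2 each; log2 2.43 ± 0.26 SE, limma adjusted p = 0.0341). Ldhb was 2.13-fold higher (16.4 ± 2.04 FPKM in TSA-treated Th2 and 7.69 ± 0.21 in Th2; log2 0.99 ± 0.12, limma adjusted p = 0.0371), and Pfkfb2 1.82-fold higher (log2 0.68 ± 0.08, limma adjusted p = 0.0368). Tpi1 fell to 207 ± 15.0 FPKM in TSA-treated Th2, against 599 ± 156 in Th2 (log2 -1.51 ± 0.23, limma adjusted p = 0.0460). Pfkl fell to 21.6 ± 0.98 FPKM in TSA-treated Th2, against 69.6 ± 21.3 in Th2 (log2 -1.61 ± 0.26, limma adjusted p = 0.0489). All 5 calls were lost when any 1 of the 4 Th2 libraries was left out, with adjusted p between 0.0733 and 0.212. Those of Pfkl and Tpi1 were also lost with a pseudocount of 0.1 (adjusted p = 0.0521 for Pfkl and 0.0503 for Tpi1) and with no filter on low values (adjusted p = 0.0699 for Pfkl and 0.0662 for Tpi1). The Pfkl call was lost with a pseudocount of 5 (adjusted p = 0.0523) and the Pfkfb2 call with quantile normalization (adjusted p = 0.0704).

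Further genes did not pass the test. Ldha had log2 -0.89 ± 0.17 (limma adjusted p = 0.0587), Pgk1 log2 -0.77 ± 0.15 (limma adjusted p = 0.0629), Pkm log2 -0.69 ± 0.18 (limma adjusted p = 0.0942) and Hk1 log2 -0.67 ± 0.18 (limma adjusted p = 0.0963). Pdk2 had log2 1.49 ± 0.25 (limma adjusted p = 0.0509) and Pfkfb4 log2 -0.78 ± 0.13 (limma adjusted p = 0.0514). Counted without a test, the TSA-treated libraries both lay below both Th2 libraries for 14 genes (41.2%, against 28.1% of 12440 genes) and both above for 6 (17.6%, against 38.1%). Set side by side by experiment number, 21 genes were lower with TSA in both, 7 were higher in both and 6 differed in sign. The numbers are not taken as a pairing, and no shares over all genes stand beside these counts, so nothing is concluded from them. Proliferation markers summed to 354 to 477 FPKM in TSA-treated Th2 libraries, against 587 to 710 in Th2 libraries, and ribosomal protein genes held 21.8% and 22.3% of summed FPKM with TSA, against 16.8% and 18.5% without. The part of either in these values was not tested.

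**Figure D2:**
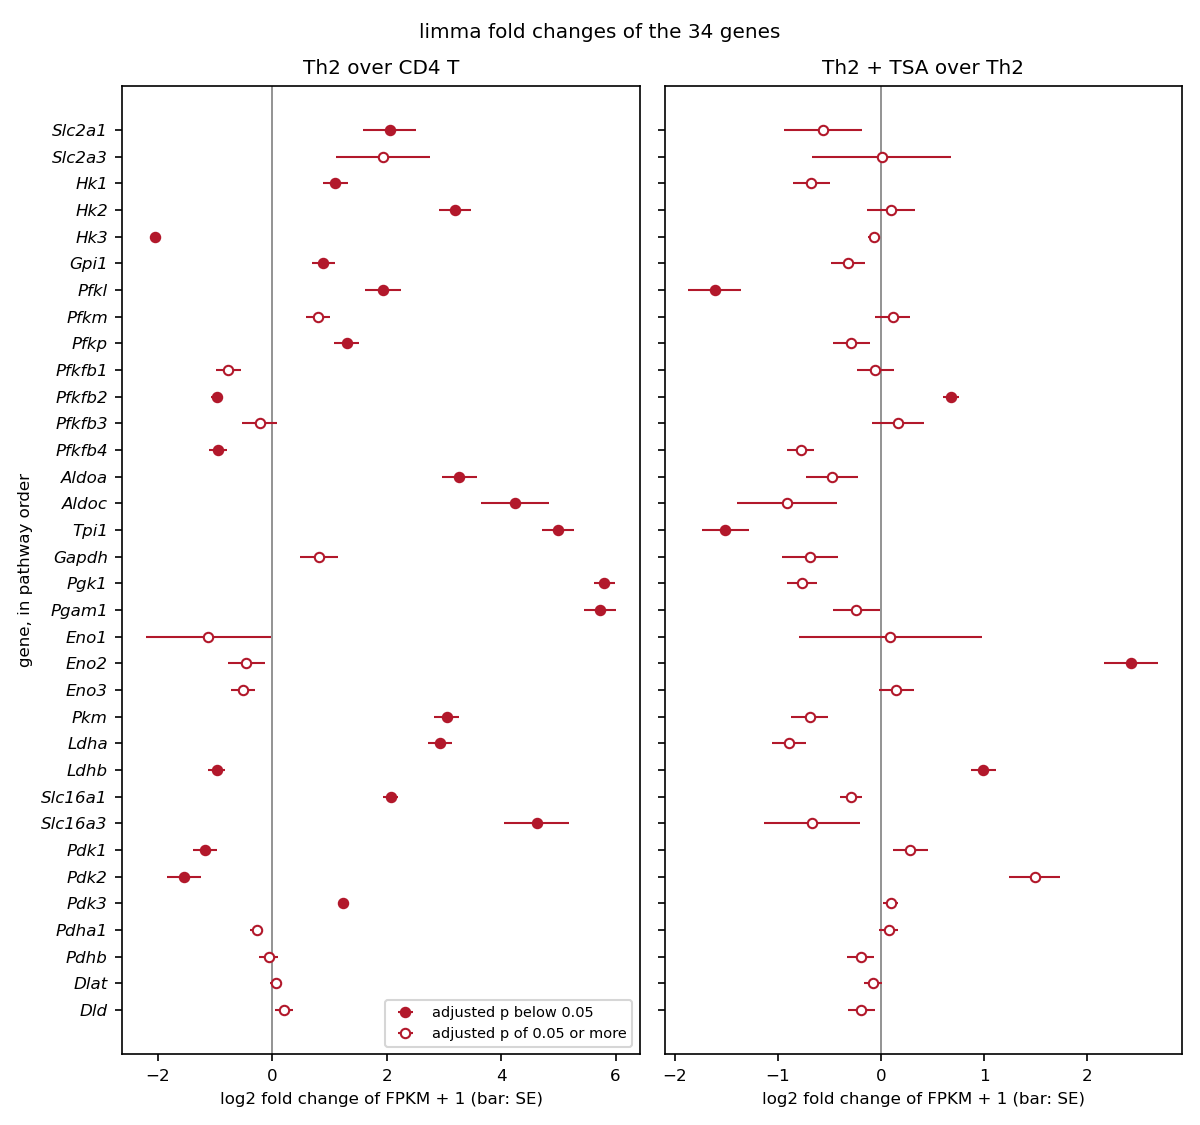
log2 fold changes (points) with their standard errors (bars) of the 34 genes on the scale of log2(FPKM + 1), for Th2 over CD4 T cells (left) and TSA-treated Th2 over Th2 cells (right); filled points have a limma adjusted p below 0.05. The left panel has 22 filled points, up to 5.80 for Pgk1, and the right panel has 5, from -1.61 for Pfkl to 2.43 for Eno2.

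ES cells, a proliferating cell type outside the blood lineage, give the other high reference for the pathway. Against ES cells, 6 of the 34 genes were higher in Th2 cells (17.6%, against a background of 19.0%) and 12 were lower (35.3%, against a background of 43.1%), so neither share stood out. Fibroblast markers summed to 4.04 to 6.26 FPKM in Th2, 0.60 to 0.70 in CD4 T and 0.51 in both B libraries, against 517 to 523 in ES libraries. All 5 of these markers reached 1 FPKM in ES cells and 1 did in Th2 cells, where Col1a2, Col3a1 and Dcn were at 0, and their part in any difference from ES cells was not tested. The median log2 fold change was -0.37 for the 34 genes and -0.41 for all genes tested. Over all genes 2355 were higher and 5329 lower, and with quantile normalization 3941 and 3988, where 11 of the 34 genes were higher. Higher in Th2 were Hk1 (5.06-fold), Pgk1 (6.16-fold), Pgam1 (5.87-fold), Tpi1 (3.08-fold), Ldha (2.16-fold) and Pdk3 (1.32-fold), with limma adjusted p from 0.0028 to 0.0400. Lower in Th2 were Slc2a1, Hk2, Hk3, Pfkfb1, Gapdh, Eno2, Ldhb, Pdk1 and all 4 pyruvate dehydrogenase subunits. Hk3 was near 0 on both sides, with 0.13 FPKM in Th2 and 0.37 in ES cells, and had the opposite sign under quantile normalization. Ldhb showed the steepest of these 12 differences, with 7.69 FPKM in Th2 against 85.4 in ES cells (log2 -3.31 ± 0.15, limma adjusted p = 0.0011). Gapdh had 177 FPKM in Th2 against 822 in ES cells (log2 -2.24 ± 0.33, limma adjusted p = 0.0137), beside the copies named above. Pdha1 had 44.5 FPKM in Th2 against 118 in ES cells (log2 -1.38 ± 0.11, limma adjusted p = 0.0039). Of these 18 calls, 9 held under all 13 other settings: Hk1, Tpi1, Gapdh, Pgk1, Pgam1, Ldha, Ldhb, Pdha1 and Dlat. Without the first Th2 library 7 genes were called lower, and without either Th2 library Pdk3, Hk2, Pfkfb1, Eno2 and Dld lost their calls (adjusted p from 0.0699 to 0.181). Slc2a1 and Pdk1 lost theirs without the first (adjusted p = 0.0503 for Slc2a1 and 0.0643 for Pdk1), and Hk3 and Pdhb without the second (adjusted p = 0.0818 for Hk3 and 0.0502 for Pdhb). With median-ratio scaling 6 genes were called lower.

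The splenic cells were compared with ES cells and with each other by size alone, since each side counts as 1 sample: a log2 difference of at least 2 with at least 5 FPKM on the higher side. In CD4 T cells against ES cells none of the 34 genes was higher by this rule (background 10.8% of 12907 genes) and 15 were lower (44.1%, background 11.9%). The median log2 difference was -1.37 for the 34 genes and -0.16 for all genes. Hk2 showed the widest gap, with 2.36 FPKM in CD4 T cells against 75.2 in ES cells. In B cells against ES cells 1 gene was higher, Pfkfb4 with 16.8 FPKM in B cells against 3.43 in ES cells (background 9.45%), and 16 were lower (47.1%, background 13.4%). Pfkfb4 lay at the limit of the rule with log2 2.01 and missed it without the second B library, without the first ES library and with a pseudocount of 5. Here the median was -2.05 for the 34 genes and -0.30 for all genes, and the widest gap was that of Ldhb with 0.83 FPKM in B cells against 85.4 in ES cells.

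Few of the genes differed by this rule between the splenic cells. In CD4 T cells 2 genes were higher than in B cells by the same rule (5.88%, background 2.56%) and none was lower (background 1.70%). They were Ldhb, with 16.1 FPKM in CD4 T cells against 0.83 in B cells, and Pdk1, with 72.8 FPKM in CD4 T cells against 14.1 in B cells. The median log2 difference was 0.25 for the 34 genes and 0.05 for all genes. B cell markers summed to 222 to 226 FPKM in CD4 T libraries against 3930 to 3932 in B libraries.

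Isoenzyme choice was described as each gene's share of the FPKM of its family, over 9 families that hold 24 of the 34 genes. FPKM is per length, which puts genes of a family on 1 scale, but near copies that can share reads differ within families. By the search given above Eno1 has 6 copies and Eno2 and Eno3 have 0. Ldha has 7 and Ldhb 1, and Aldoa has 5 and Aldoc 0. The shares in these families are therefore uncertain, and the part of the copies in them was not tested. In 4 families the same gene led in all 5 groups by mean share: Aldoa, Eno1, Ldha and Pdk1. For Eno1 this holds for the means only, since Eno3 held more in the first library of both Th2 groups. In the other 5 families the leader differed between groups. Th2 and CD4 T cells had different leaders in 1 family, the lactate transporters, and in 3 families without the second Th2 library. By mean share the leader was the same gene with and without TSA in all 9 families.

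Hexokinase and phosphofructokinase set ES cells apart. Hk2 made up 40.5% ± 6.71 of hexokinase FPKM in TSA-treated Th2 (SD over 2 libraries, as for all shares here), 28.4% ± 4.93 in Th2, 5.80% ± 0.36 in CD4 T and 13.3% ± 0.56 in B cells, where Hk1 led, against 83.0% ± 0.08 in ES cells. Pfkl made up 22.8% ± 0.08 of phosphofructokinase in CD4 T and 33.97% ± 0.41 in B cells, where Pfkp led, against 56.5% ± 0.31 in ES cells. Within the Th2 groups Pfkl held 15.2% and 15.8% with TSA, against 31.0% and 34.7% without, so that its share was lower too, while Pfkp held 72.7% ± 1.43 with TSA and 59.8% ± 2.34 without.

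Lactate metabolism divided the groups in another way. Ldhb made up 2.47% ± 0.28 of lactate dehydrogenase FPKM in TSA-treated Th2, 0.64% ± 0.10 in Th2, 9.35% ± 0.16 in CD4 T, 1.12% ± 0.16 in B and 13.3% ± 0.26 in ES cells. Ldha thus held nearly all of the family in Th2 cells, and B cells resembled Th2 cells in share though not in level. Slc16a3 made up 72.4% ± 6.81 of the lactate transporter FPKM in TSA-treated Th2, 76.8% ± 9.73 in Th2, 33.4% ± 0.68 in CD4 T, 15.9% ± 0.54 in B and 60.8% ± 0.16 in ES cells. Slc16a1 therefore led only in the splenic cells. Slc16a3 is the single gene of the 34 with several transcripts in the files, 3 in number, and when these were summed it led in CD4 T cells too. The Th2 files repeat the same value for all 3, so the difference in its share from the other groups is uncertain.

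The leading enolase and glucose transporter differed between the Th2 libraries. Eno1 made up 42.7% ± 4.75 of enolase FPKM in TSA-treated Th2, 52.9% ± 28.2 in Th2, 64.0% ± 0.62 in CD4 T, 57.2% ± 0.67 in B and 93.5% ± 0.06 in ES cells. In Th2 its share was 33.0% in the first library and 72.9% in the second, so the leader there rests on the second library. Eno2 held 20.7% ± 4.83 with TSA, against 1.97% ± 0.28 in Th2 and at most 2.29% as a mean in the other groups. Pfkfb3 led its family in every group but B cells, where Pfkfb4 held 39.7% ± 0.41. Among the pyruvate dehydrogenase kinases Pdk1 held 55.7% ± 0.07 in TSA-treated Th2, 55.6% ± 4.12 in Th2, 83.4% ± 0.07 in CD4 T, 49.6% ± 0.84 in B and 73.2% ± 0.44 in ES cells, and Pdk3 made up most of the rest in Th2 cells with 37.4% ± 2.20 with TSA and 42.7% ± 4.03 without. Slc2a1 and Slc2a3 shared glucose transport, with Slc2a1 at 38.5% ± 2.00 in TSA-treated Th2, 48.3% ± 8.85 in Th2, 46.1% ± 1.08 in CD4 T, 64.0% ± 0.53 in B and 50.9% ± 0.09 in ES cells. The Th2 libraries disagreed on which of these transporters led, with Slc2a1 at 54.6% in the first and 42.1% in the second.

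**Figure D3:**
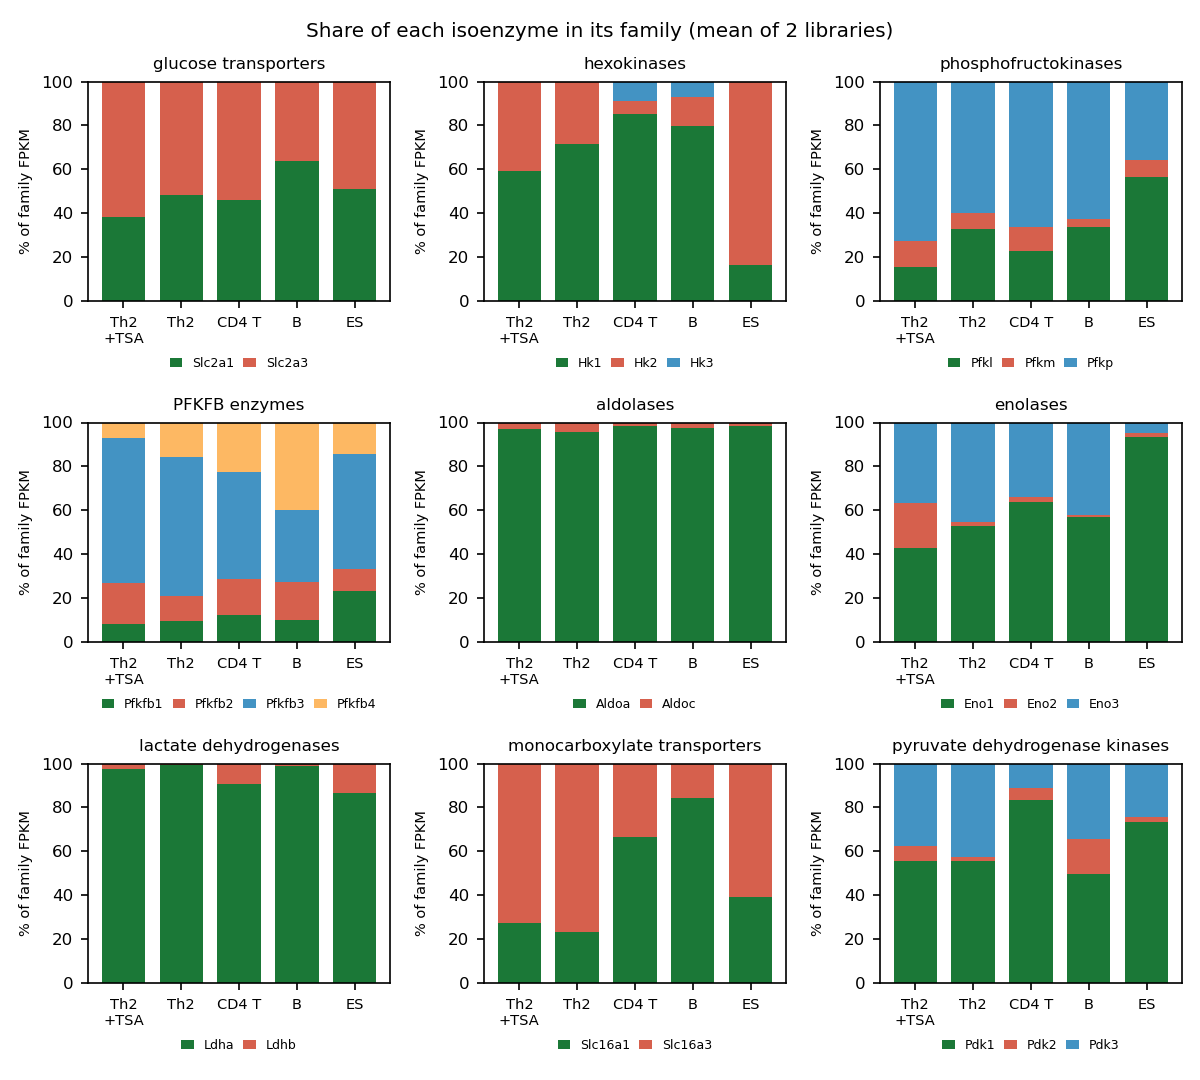
Mean share (%) of each isoenzyme in the summed FPKM of its family, in 9 families (panels), with the groups from left to right TSA-treated Th2, Th2, CD4 T, B and ES and 1 colour per gene. In the hexokinase panel Hk2 fills 5.80% of the CD4 T bar and 83.0% of the ES bar. Slc16a3 fills 76.8% of the lactate transporter bar in Th2 and 15.9% in B cells.

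The repeat Th2 cultures stood apart in many of these genes without TSA and in few with it. Among genes with at least 10 FPKM, the median absolute log2 ratio between the TSA-treated libraries was 0.19 for 27 of the 34 genes and 0.19 for 5896 genes in all, and 3 of the 27 (11.1%) reached 0.5, against 9.11% of all such genes. Between the untreated Th2 libraries the median was 0.40 for 26 of the 34 genes and 0.17 for 5797 genes in all, and 11 of the 26 (42.3%) reached 0.5, against 5.73%. The difference between these spreads was not tested. In direction, 16 of the 34 genes were higher in the second library with TSA, where 50.4% of all 12907 genes were, and 24 of the 34 were higher in the second library without TSA, where 46.1% of all genes were. In the ES, B and CD4 T pairs the median over the 34 genes was between 0.02 and 0.03.

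The genes that differed most between the untreated Th2 libraries were Eno1, Slc2a3, Slc16a3, Aldoc and Slc2a1, all higher in the second library. The log2 ratio of Eno1 was 0.36 with TSA and 2.20 without, that of Slc2a3 0.55 with TSA and 1.59 without, and that of Slc16a3 0.47 with TSA and 1.07 without. Aldoc had 0.69 with TSA and 0.996 without, and Slc2a1 0.38 with TSA and 0.87 without. The other lactate transporter, Slc16a1, had -0.21 with TSA and -0.06 without, and Eno3 had -0.36 with TSA and -0.13 without. The pyruvate dehydrogenase subunits went slightly the other way, with untreated ratios from -0.25 for Pdhb to -0.02 for Pdha1. Hk2 had -0.56 with TSA and -0.06 without. General hypoxia genes outside glycolysis moved with this difference: Bnip3 had 108 and 201 FPKM, Vegfa 10.8 and 24.6, Ndrg1 26.4 and 63.5 and Ddit4 81.1 and 160 in the first and second untreated Th2 libraries. Egln3, an oxygen-sensing hydroxylase, had 82.9 and 194 FPKM. Their part in the spread of the glycolysis genes was not tested.

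**Figure D4:**
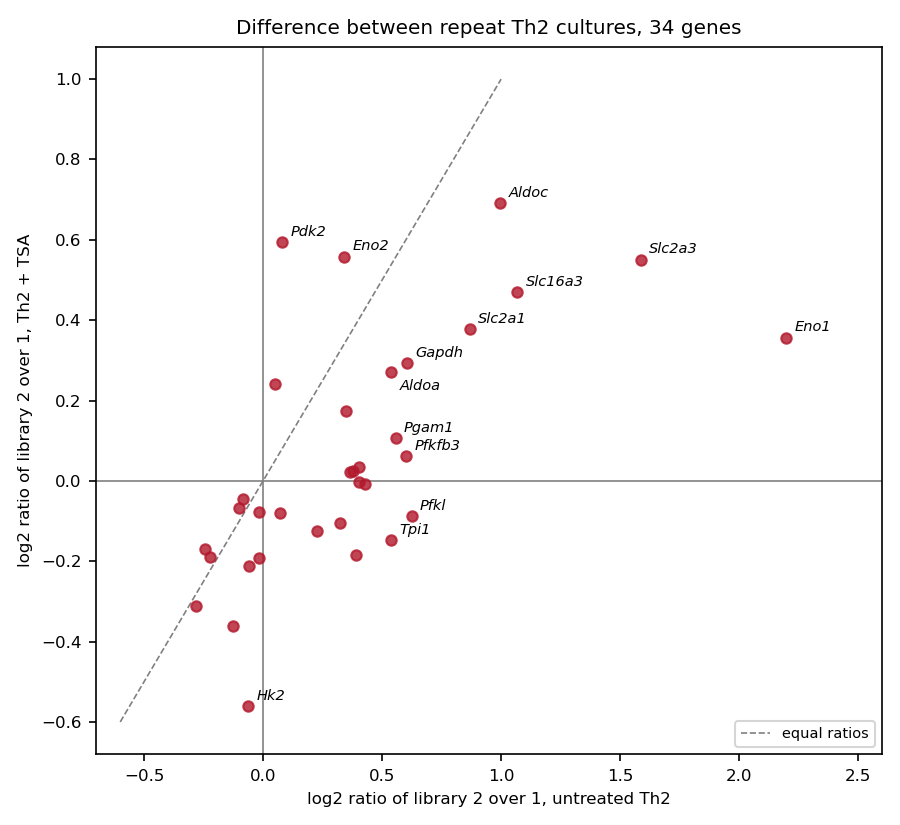
log2 ratio of the second over the first library on the scale of log2(FPKM + 1), for TSA-treated Th2 (vertical) and untreated Th2 (horizontal), with 1 point per gene and names where a ratio reaches 0.5 in size. Eno1 lies at 0.36 with TSA and 2.20 without, Slc2a3 at 0.55 with TSA and 1.59 without, and 24 of the 34 points lie right of 0.

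Genes next to glycolysis were read from 6 lists of the pathway's surroundings. The pentose phosphate pathway, which branches off after hexokinase and makes NADPH and ribose, had 4 of 7 genes higher in Th2 than in CD4 T cells and none lower by limma, with a median log2 of 0.60. Over all genes 16.9% were higher and 38.1% lower, with a median of -0.28. At an unadjusted p below 0.05 the counts were 5 and 0. Tkt, transketolase, had 100.1 and 78.7 FPKM in TSA-treated Th2, 171 and 183 in Th2, and 57.8 and 58.5 in CD4 T libraries. It rose over CD4 T cells (log2 1.59 ± 0.19, limma adjusted p = 0.0100) and fell with TSA (log2 -0.99 ± 0.15, limma adjusted p = 0.0465). Rpia, which makes ribose 5-phosphate, rose over CD4 T cells (log2 0.60 ± 0.10, limma adjusted p = 0.0195) and fell with TSA (log2 -1.19 ± 0.08, limma adjusted p = 0.0272). Pgd rose over CD4 T cells (log2 1.01 ± 0.17, limma adjusted p = 0.0195) and had log2 -0.82 ± 0.14 with TSA (limma adjusted p = 0.0508). Rpe had log2 0.80 ± 0.22 over CD4 T cells (limma adjusted p = 0.0566) and -0.11 ± 0.18 with TSA (limma adjusted p = 0.687). The libraries of Tkt and Rpia with and without TSA did not overlap. Both TSA-treated libraries also lay below both untreated ones for 28.1% of all 12440 genes. Like every TSA call over all genes, those of Tkt and Rpia were lost when either untreated Th2 library was left out.

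Of 12 tested paralogs of the glycolysis enzymes, 1 was higher and 8 were lower in Th2 than in CD4 T cells, beside a background of 16.9% higher and 38.1% lower. Pgm2 rose (log2 1.58 ± 0.32, limma adjusted p = 0.0309), while Pgam2, the muscle mutase, fell (log2 -2.29 ± 0.28, limma adjusted p = 0.0113), as did the testis form Gapdhs (log2 -2.10 ± 0.09, limma adjusted p = 0.0019). Galm, a mutarotase of hexoses, fell in Th2 relative to CD4 T cells (log2 -1.32 ± 0.21, limma adjusted p = 0.0178) and rose with TSA (log2 1.72 ± 0.17, limma adjusted p = 0.0321). With TSA 3 of the 12 were higher (background 10.1%) and none was lower (background 4.72%) by limma, and at an unadjusted p below 0.05 the counts were 6 and 1. These TSA calls, that of Galm among them, were lost when either untreated Th2 library was left out.

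Around mitochondrial pyruvate, 1 of 10 tested genes was higher in Th2 than in CD4 T cells and none was lower by limma (background 16.9% and 38.1%), and at an unadjusted p below 0.05 the counts were 1 and 3. With TSA none passed in either direction, against 2 higher and 0 lower unadjusted. The 1 higher gene was Pcx, pyruvate carboxylase, with 22.2 and 22.3 FPKM in TSA-treated Th2, 19.4 and 25.3 in Th2, and 1.04 and 1.10 in CD4 T libraries (log2 3.48 ± 0.20 over CD4 T cells, limma adjusted p = 0.0033). The pyruvate carrier gene Mpc1 had log2 -1.14 ± 0.33 (limma adjusted p = 0.0665). Pdpr and Pdp2, of the phosphatases that reopen the pyruvate dehydrogenase complex, had log2 -1.03 ± 0.32 (limma adjusted p = 0.0761) and 0.41 ± 0.45 (limma adjusted p = 0.484). Of 16 genes of the tricarboxylic acid cycle, 6 were higher and 1 was lower in Th2 than in CD4 T cells, with a median log2 of 0.40, beside 16.9% higher, 38.1% lower and a median of -0.28 over all genes. Citrate synthase (Cs) rose both in Th2 over CD4 T cells (log2 0.86 ± 0.06, limma adjusted p = 0.0048) and with TSA (log2 0.48 ± 0.05, limma adjusted p = 0.0341). The TSA call of Cs was lost when either untreated Th2 library was left out. Sdhd, a succinate dehydrogenase subunit, rose over CD4 T cells (log2 0.97 ± 0.09, limma adjusted p = 0.0065). Suclg2 had log2 0.77 ± 0.47 (limma adjusted p = 0.248).

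Among 13 tested regulators of glycolysis genes, 3 were higher and 5 lower in Th2 than in CD4 T cells, counts near the background of 16.9% higher and 38.1% lower. Myc, the remaining regulator of the list of 14, was left out because it was at 0 FPKM in all 4 Th2 libraries. Its means were 34.7 FPKM in CD4 T, 51.4 in B and 24.5 in ES cells. In all, 15 genes were at 0 in the Th2 libraries and above 10 FPKM in all others, and the reason was not tested. Egln3, the oxygen-sensing hydroxylase given above, rose over CD4 T cells (log2 5.38 ± 0.63, limma adjusted p = 0.0100) and had log2 -0.38 ± 0.51 with TSA (limma adjusted p = 0.620). Hif1a, the oxygen-regulated subunit of hypoxia-inducible factor, had 149.8 and 151 FPKM in TSA-treated Th2, 193 and 177 in Th2, and 28.5 and 29.3 in CD4 T libraries (log2 2.64 ± 0.09 over CD4 T cells, limma adjusted p = 0.0014). Its relative Epas1 had 39.5 and 28.9 FPKM in TSA-treated Th2, 80.0 and 71.6 in Th2, and 2.77 and 2.88 in CD4 T libraries (log2 4.33 ± 0.24, limma adjusted p = 0.0031). Txnip, which restrains glucose uptake, had 191 and 326 FPKM in TSA-treated Th2, 67.6 and 65.1 in Th2, and 514 in both CD4 T libraries, and fell in Th2 relative to CD4 T cells (log2 -2.93 ± 0.38, limma adjusted p = 0.0124). With TSA none of the 13 passed the test, against 2 higher and 3 lower at an unadjusted p below 0.05, with log2 -0.30 ± 0.07 for Hif1a (limma adjusted p = 0.0837), -1.14 ± 0.20 for Epas1 (limma adjusted p = 0.0535) and 1.90 ± 0.31 for Txnip (limma adjusted p = 0.0508). Of 8 hypoxia genes outside glycolysis, Bnip3 (log2 5.85 ± 0.51, limma adjusted p = 0.0061) and Vegfa (log2 3.30 ± 0.57, limma adjusted p = 0.0220) rose in Th2 over CD4 T cells (background 16.9%). The other 6 did not pass the test, among them Ndrg1 with log2 2.40 ± 0.64 (limma adjusted p = 0.0547) and Ddit4 with log2 -1.18 ± 0.59 (limma adjusted p = 0.185), and with TSA none passed it, unadjusted counts included.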

How the data were processed

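The 10 libraries were used in 5 groups taken from the sample titles. The authors deposited 1 FPKM value per transcript. They used Cufflinks 2.0.2, TopHat 1.3.2, Bowtie 0.12.8 and the mm10 build, per the submitters' processing notes. Tool settings, strand and the handling of multi-mapping reads were not given in the sources used here. Without read numbers the depth is unknown, so values carry no counting interval. The 21035 values per file gave 19025 genes, each by its highest value. Some rows carried no symbol (315) or a date in its place (30) and were named from the RefSeq table of GRCm38.p6, or by accession.

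The ES, B and CD4 T pairs were averaged to 1 sample each, which leaves 7 samples and 2 residual degrees of freedom, where 10 separate samples had been planned. limma 3.58.1 in R 4.3.3 was run with a trend on log2(FPKM + 1), two-sided, for 12907 genes with 1 FPKM in at least 2 libraries, with Benjamini-Hochberg adjustment over all genes tested. A fold change in log2 understates the change of low genes, and the single CD4 T and ES samples are assumed to vary like the Th2 groups. Genes at 0 in all 4 Th2 files (467) or in all 6 others (73) were left out of the contrasts concerned. Fold values without log2 are ratios of mean FPKM. Comparisons without replicates used log2 2 and 5 FPKM. The fit was checked on simulated data. Copies were sought with BLAST 2.17.0 in GENCODE M21. All 34 genes are named, and from each list of surrounding genes up to 4 with the largest change, of which 1 is not reported here. The genes and lists were chosen with earlier results of these data known. The alternatives were pseudocounts of 0.1 and 5, no filter, summed or averaged values per gene, quantile and median-ratio scaling, 10 separate libraries, the replicate number as a block, and each library left out.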

Additional observations from a re-analysis of the deposited data

How the results depend on the processing

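Quantile normalization moved the median of all genes by more than 0.1 on the log2 scale, to 0.02 against -0.28 as reported for Th2 over CD4 T cells and to 0.00 against -0.41 for Th2 over ES cells, and median-ratio scaling moved these medians to -0.03 and -0.06. The split of all genes between higher and lower in Th2 over CD4 T cells was 2875 and 3420 with median-ratio scaling and 3369 and 6495 with 10 separate libraries. For Th2 over ES cells it was 3303 and 3834 with median-ratio scaling. With TSA it was 920 and 386 with no filter and 3935 and 2896 with 10 separate libraries. Leaving out a Th2 library leaves 1 residual degree of freedom. Calls over all genes then numbered 942 to 1061 higher and 2246 to 2382 lower for Th2 over CD4 T cells and 1432 to 1545 higher and 3254 to 3417 lower for Th2 over ES cells without an untreated library, and calls over all genes with TSA then numbered 0 to 341 higher and 0 to 21 lower.

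Of the 34 genes, the 6 called lower in Th2 than in CD4 T cells became 2 with quantile normalization, 10 with 10 separate libraries and 2 to 6 with a library left out. The 3 called higher with TSA became 0 with any library left out. The 2 called lower with TSA became 0 with a pseudocount of 0.1 or no filter, 1 with a pseudocount of 5, 6 with quantile normalization, 12 with 10 separate libraries and 0 with any library left out. The 6 called higher in Th2 than in ES cells became 11 with quantile normalization and 10 with 10 separate libraries. The 12 called lower became 6 with median-ratio scaling and 7 to 13 with a library left out. The 1 gene higher in B than in ES cells became 0 with a pseudocount of 5 and 0 to 1 with a library left out, and the 2 higher in CD4 T than in B cells became 1 with a pseudocount of 5. The 1 family with different leaders in Th2 and CD4 T cells became 0 with summed values and 1 to 3 with a library left out, where 3 came without the second Th2 library. The causes were not tested.

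Signs turned as follows. For Th2 over CD4 T cells, quantile normalization gave log2 0.13 for Pfkfb3, 0.24 for Eno2 and 0.0124 for Pdhb, and median-ratio scaling gave 0.14 for Pfkfb3, 0.10 for Pdha1 and 0.31 for Pdhb. With a library left out Pfkfb3 ranged from -0.52 to 0.0835 and Pdhb from -0.19 to 0.0573. For Th2 over ES cells, quantile normalization gave 0.46 for Hk3, which was called in both directions, 0.15 for Pfkm, -0.45 for Aldoa, -0.61 for Pkm and 0.69 for Pdk2. Median-ratio scaling gave 0.28 for Pfkm, which ranged from -0.33 to 0.054 with a library left out. With TSA, Slc2a3 had -0.0025 with a pseudocount of 5 and -0.076 with median-ratio scaling, and Pdha1 had -0.0071 with that scaling. With a library left out, values with TSA ranged from -0.79 to 0.80 for Slc2a3, -0.18 to 0.38 for Hk2, -0.0762 to 0.30 for Pfkm, -0.21 to 0.10 for Pfkfb1, -0.13 to 0.47 for Pfkfb3, -0.52 to 0.0413 for Pgam1, -1.01 to 1.19 for Eno1, -0.0323 to 0.33 for Eno3 and -0.022 to 0.17 for Pdha1.

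Libraries with the same experiment number deviated together (correlation 0.577 over tested genes, 0.631 over the 34), but with 2 pairs, and labels that name only experiments, the numbers are not taken as a pairing. With the replicate number as a block in the 4 Th2 libraries, 3 of the 34 genes were higher and 0 lower with TSA, where Pfkl had an adjusted p of 0.0591 and Tpi1 of 0.0604 by limma, and over all genes 1600 were higher and 963 lower. The block with 10 separate libraries gave 10 genes lower in Th2 than in CD4 T cells and 10 higher in Th2 than in ES cells.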
